A study of Mus musculus with 4 samples.

Results

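The genes described here were the Serpina3 protease inhibitors and a small set of acute-phase genes in mouse lung. The 10 genes were taken by name from the 41079 genes of the count table, namely Serpina3c, Serpina3f, Serpina3g, Serpina3h, Serpina3i, Serpina3m, Serpina3n, Saa3, Lrg1 and Hp. They were chosen by their counts in these same 4 libraries, for members that differed by genotype in opposite directions in normal and OVA-induced lungs. All values of these 10 genes in these libraries are therefore a description, and none of them is a test. The table's own annotation puts 3 of the 10 genes (Hp, Saa3 and Serpina3n) under the acute-phase response, and 6 of the 7 Serpina3 genes (all but Serpina3h) under serine protease inhibition.

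Whole-lung RNA was sequenced as 4 libraries, 1 per group, from WT and Rab44-KO mice that were either normal or OVA-induced, and the number of mice behind a library is not given in the sources used here. All mice were female littermates of 8 to 14 weeks on the C57BL/6 background, and the Rab44-KO mice lack Rab44, a large Rab GTPase of immune cells, after CRISPR/Cas9 editing of the germline, so the gene is missing from every cell type. The OVA-induced mice of either genotype were sensitized with 100 μg of ovalbumin (OVA) in alum by intraperitoneal injection on days 0, 7 and 14. They then took 100 μg of OVA in 50 μL through the nose on each of days 17 to 20, and lungs were taken on day 21. The labels call the normal mice untreated, while the protocol they carry also names PBS. The study used these mice to ask how loss of Rab44 changes allergic airway inflammation.

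Serpins are decoy substrates. A protease cuts the exposed loop of the inhibitor and is then trapped on it for good. Humans have the single gene SERPINA3, which encodes antichymotrypsin, while in mice the same locus has expanded into a row of close paralogs that differ mainly in the loop and therefore in the proteases they meet. Acute-phase genes encode plasma and tissue proteins whose synthesis changes in inflammation, mostly under interleukin-6 and interleukin-1 acting through STAT3, C/EBP and NF-kB. Liver is the main source of these proteins, but Saa3, Lrg1, Hp and Serpina3n are also made outside the liver, in epithelium, macrophages, endothelium or fat.

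Each library held between 18112901 and 19910236 counts, scaled by the TMM method to CPM, which is the count of a gene per 1000000 counts of the library. The log2 fold change (log2FC) was taken between 2 libraries for genes that reached 10 counts in either of them, and a gene past 2-fold was counted as higher or lower. Where 4 values follow each other without their libraries, the order is normal WT, normal Rab44-KO, then WT and Rab44-KO after OVA. The ranges given are exact 95% intervals and cover counting error only. With 1 library per group no difference has a replicate check, and each comparison is between libraries. In whole lung, fewer cells of a type and less RNA per cell cannot be told apart. Rab44 itself had 251 counts in WT and 1 in Rab44-KO among the normal lungs, and 810 and 0 after OVA, where it was at least 272-fold lower in the Rab44-KO library at a floor of 3 counts. The surfactant gene Sftpc, which marks alveolar type 2 cells of the lung, had between 181126 and 361981 counts in the 4 libraries.

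The 7 Serpina3 members lie in a row on mouse chromosome 12. In GENCODE M21 on GRCm38 the row runs from Serpina3c (104146382 to 104153870, minus strand) through Serpina3f (104214544 to 104221129), Serpina3g (104236245 to 104241939), Serpina3h (104247905 to 104253669) and Serpina3i (104263122 to 104269372) to Serpina3m (104338486 to 104394257) and Serpina3n (104406729 to 104414329), all on the plus strand except Serpina3c. Serpina3h is annotated as a transcribed pseudogene, and the others as protein-coding genes. Saa3 lies on chromosome 7 (46711998 to 46715700), Lrg1 on chromosome 17 (56119678 to 56122001) and Hp on chromosome 8 (109575128 to 109579172), all on the minus strand.

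The stretches just upstream of the paralogs are printed because neighbouring members moved differently in the lung while their sequences are close to each other. The stretches are from RefSeq on GRCm38.p6, from the base 250 before the most upstream RefSeq start, and bases inside a GENCODE transcript were left out. They are read 5′ to 3′ on the strand of the gene. Capitals mark every match, on either strand, to 5 short motifs. The motifs were TTGCNNAA for C/EBP, TTCNNNGAA for STAT, GGGANTTTC for NF-kB, GAAANNGAA for interferon regulatory factors and TATAAA for a TATA box. Positions were chr12:104214294-104214543 for Serpina3f, chr12:104235897-104236146 for Serpina3g, chr12:104262872-104263121 for Serpina3i, chr12:104406458-104406707 for Serpina3n, chr12:104153873-104154122 for Serpina3c and chr7:46715701-46715926 for Saa3.
Serpina3f: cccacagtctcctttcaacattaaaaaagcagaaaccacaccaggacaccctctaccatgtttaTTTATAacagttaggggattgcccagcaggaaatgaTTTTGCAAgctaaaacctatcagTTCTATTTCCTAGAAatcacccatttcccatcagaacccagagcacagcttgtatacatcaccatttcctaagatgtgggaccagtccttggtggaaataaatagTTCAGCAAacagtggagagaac
Serpina3g: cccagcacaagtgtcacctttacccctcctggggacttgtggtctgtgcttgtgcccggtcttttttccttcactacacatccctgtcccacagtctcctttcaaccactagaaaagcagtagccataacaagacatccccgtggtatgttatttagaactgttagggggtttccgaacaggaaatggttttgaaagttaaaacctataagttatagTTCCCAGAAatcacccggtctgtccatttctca
Serpina3i: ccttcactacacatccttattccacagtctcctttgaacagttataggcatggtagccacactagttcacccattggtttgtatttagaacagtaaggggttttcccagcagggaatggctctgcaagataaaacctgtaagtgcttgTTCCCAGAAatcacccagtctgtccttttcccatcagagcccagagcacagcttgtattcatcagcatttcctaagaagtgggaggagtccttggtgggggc
Serpina3n: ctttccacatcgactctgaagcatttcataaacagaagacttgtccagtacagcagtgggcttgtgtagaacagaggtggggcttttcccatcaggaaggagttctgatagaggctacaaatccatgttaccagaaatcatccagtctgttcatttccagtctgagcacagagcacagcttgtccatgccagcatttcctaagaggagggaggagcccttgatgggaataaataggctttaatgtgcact
Serpina3c: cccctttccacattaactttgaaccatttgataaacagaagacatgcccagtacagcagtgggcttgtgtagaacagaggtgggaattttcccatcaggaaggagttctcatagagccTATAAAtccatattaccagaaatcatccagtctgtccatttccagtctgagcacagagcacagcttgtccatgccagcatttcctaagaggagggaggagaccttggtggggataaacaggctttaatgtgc
Saa3: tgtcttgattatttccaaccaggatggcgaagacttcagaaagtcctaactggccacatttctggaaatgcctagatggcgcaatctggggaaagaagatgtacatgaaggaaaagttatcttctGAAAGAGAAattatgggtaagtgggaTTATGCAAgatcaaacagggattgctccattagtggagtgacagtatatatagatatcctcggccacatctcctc

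The STAT motif stood upstream of Serpina3f (bases -121 to -113 from the RefSeq start), Serpina3g (-33 to -25) and Serpina3i (-102 to -94), and in Serpina3f it overlapped the interferon regulatory factor motif at -127 to -119. The bases of Serpina3n and Serpina3c that line up with the Serpina3i match read TTACCAGAA, which is C3A against TTCCCAGAA, counted from 1 at the first base of the match. Serpina3f differs from the Serpina3i match by C5T and still fits the motif. The C/EBP motif stood upstream of Serpina3f at -150 to -143 and -22 to -15, and upstream of Saa3 at -99 to -92, where Saa3 also held the interferon regulatory factor motif at -125 to -117. The same bases before the start of 32851 promoters held the STAT motif in 7.02%, the C/EBP motif in 9.56%, the interferon regulatory factor motif in 7.13%, the TATA box in 12.4% and the NF-kB motif in 0.941%. None of the 5 motifs was found in the 250 bases of Serpina3n or in the 195 bases kept for Lrg1. Over aligned bases the stretch of Serpina3c matched that of Serpina3n at 92.7% and that of Serpina3f at 72.0%. A match is a description of letters, and binding was not measured.

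Serpina3g and Serpina3f, the members that differed most between normal and OVA-induced lungs within the cluster, were higher in normal Rab44-KO lungs and lower in OVA-induced Rab44-KO lungs than in the WT library beside them. Serpina3g encodes an intracellular serpin that inhibits cathepsin B and other lysosomal cysteine proteases in lymphocytes and macrophages. In normal lungs it had 132 counts in WT and 266 in Rab44-KO, and after OVA it had 1259 and 390. The log2FC by genotype, Rab44-KO over WT, was 1.08 in normal lungs (0.78 to 1.40) and -1.70 in OVA-induced lungs (-1.87 to -1.54). The OVA-induced WT library was the highest of the 4 and the normal WT library the lowest, with both Rab44-KO libraries in between.

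Serpina3f, its neighbour in the cluster, had 52, 122, 358 and 146 counts, which is 2.71, 6.68, 18.5 and 7.49 CPM. The order of the libraries was the same as for Serpina3g. The log2FC by genotype was 1.30 in normal lungs (0.82 to 1.80) and -1.30 in OVA-induced lungs (-1.59 to -1.02). The counting intervals of the levels in the 2 Rab44-KO libraries overlapped (5.55 to 7.98 CPM and 6.32 to 8.81 CPM). Over the 4 libraries Serpina3f and Serpina3g were the closest pair of members by pattern, with a distance of 0.499 between their centred log2 CPM, and Serpina3f and Lrg1 followed at 0.542.

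The summed counts of the adjacent genes Serpina3f, Serpina3g, Serpina3h and Serpina3i were 229 in WT and 437 in Rab44-KO for normal lungs, and 1836 and 709 after OVA. A sum does not depend on how reads were divided among these 4 paralogs. Its log2FC by genotype was 1.01 in normal lungs (0.77 to 1.24) and -1.38 in OVA-induced lungs (-1.51 to -1.26). Serpina3f and Serpina3g, which were chosen for this pattern, make up most of the sum in every library, so its direction adds nothing to theirs. Summed over all 11 Serpina3 genes of the table, with most counts from Serpina3n, the log2FC was 0.07 in normal lungs (-0.02 to 0.15). In OVA-induced lungs it was -0.40 (-0.46 to -0.35), while the summed TPM there differed less, at 322 in WT and 303 in Rab44-KO.

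**Figure D1:**
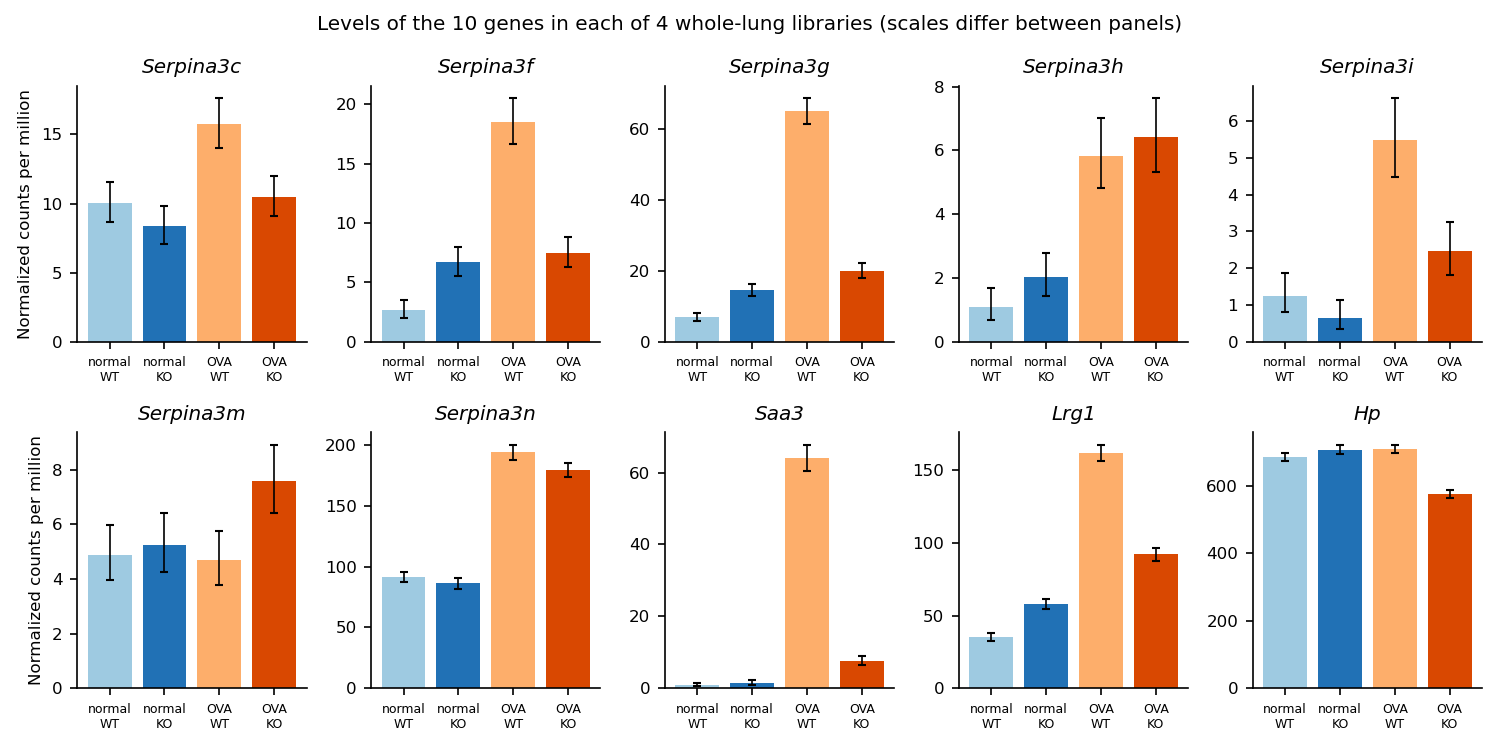
Normalized CPM (linear axes from 0, a different scale in each panel) of the 10 genes in the 4 libraries, with exact 95% Poisson intervals as error bars. Serpina3f, Serpina3g, Saa3 and Lrg1 share 1 order of libraries, with OVA-induced WT highest and normal WT lowest, while Hp stays between 576 and 711 CPM.

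Saa3, an acute-phase apolipoprotein that draws in leukocytes and is made outside the liver, had the widest range of the 10 genes as a fold between libraries. Its counts in WT and Rab44-KO were 19 and 28 in normal lungs and 1241 and 150 after OVA, which is 0.990, 1.53, 64.1 and 7.69 CPM. Only the OVA-induced WT library was above 8 CPM. The log2FC by genotype was -3.06 in OVA-induced lungs (-3.31 to -2.81), an 8.32-fold lower level, while in normal lungs it was 0.63 with a counting interval that held 0 (-0.26 to 1.55). At this depth a genotype difference of Saa3 in normal lungs was not detectable. The other serum amyloid A genes of the table were close to absent: Saa1 had between 0 and 7 counts, Saa2 between 0 and 2 and Saa4 between 0 and 6 in a library.

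Lrg1, a secreted leucine-rich glycoprotein that acts on TGF-beta signalling in endothelium, had the order of libraries of Serpina3g at a higher level. It stood at 35.3 CPM in WT and 57.8 in Rab44-KO for normal lungs, and at 162 and 92.0 CPM after OVA. The log2FC by genotype was 0.71 in normal lungs (0.57 to 0.85) and -0.81 in OVA-induced lungs (-0.90 to -0.73), the latter -0.49 on the TPM, so neither difference was over 2-fold and the 2 had opposite signs.

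Hp encodes haptoglobin, which binds free hemoglobin for uptake through the receptor Cd163, and it was the member with most counts. Its level was 685 CPM in WT and 708 in Rab44-KO for normal lungs, and 711 and 576 CPM after OVA. Its 13155, 12924, 13763 and 11234 counts give narrow counting intervals around small differences. The log2FC by genotype was 0.05 in normal lungs (0.01 to 0.08) and -0.30 in OVA-induced lungs (-0.34 to -0.27), and the latter turned to 0.02 on the length-scaled TPM. The TPM moved the median of all genes in that comparison by 0.317 on the log2 scale, and relative to that shift Hp was at -0.29. Cd163 had between 255 and 350 counts in the 4 libraries, with a log2FC by genotype of 0.18 in normal and 0.12 in OVA-induced lungs.

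Serpina3n, an extracellular inhibitor of granzyme B and cathepsin G, carried most counts of the cluster and was nearly equal between genotypes. Its level was 91.4 CPM in WT and 86.1 in Rab44-KO for normal lungs, and 194 and 179 CPM after OVA. The 2 OVA-induced libraries were above the 2 normal ones. The log2FC by genotype was -0.08 in normal lungs (-0.18 to 0.01) and -0.11 in OVA-induced lungs (-0.18 to -0.05), and the latter was 0.21 on the TPM and -0.10 relative to the shift of all genes.

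Serpina3c, also known as kallikrein-binding protein, had 193, 153, 305 and 204 counts. It was lower in the Rab44-KO library in both conditions, with a log2FC of -0.26 in normal (-0.58 to 0.05) and -0.59 in OVA-induced lungs (-0.85 to -0.33), the latter -0.26 on the TPM. Serpina3i had 24, 12, 106 and 48 counts, and was lower by genotype in both conditions as well, at -0.92 in normal (-2.06 to 0.13) and -1.15 in OVA-induced lungs (-1.68 to -0.65). At 24 and 12 counts its interval in normal lungs held 0, so its sign there was not established. Serpina3i holds the same STAT motif as Serpina3g, and whether the motif bears on these levels was not tested.

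Serpina3h, the transcribed pseudogene, had 21, 37, 113 and 125 counts, with a log2FC by genotype of 0.89 in normal lungs (0.08 to 1.74) and 0.14 in OVA-induced lungs (-0.24 to 0.52). Serpina3m had 94, 96, 91 and 148 counts, and was the member whose counting interval lay above 0 in OVA-induced Rab44-KO over WT, at a log2FC of 0.69 (0.31 to 1.09) against 0.10 in normal lungs (-0.32 to 0.53). These were the 2 members that were not lower in the OVA-induced Rab44-KO library. In GENCODE M21 the span of Serpina3m also covers Serpina3k, whose counts were 0, 1, 23 and 14. The remaining Serpina3 genes were near the floor, with 0 to 5 counts for Serpina3a, 1 to 4 for Serpina3b and 0 in each library for Serpina3j.

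**Figure D2:**
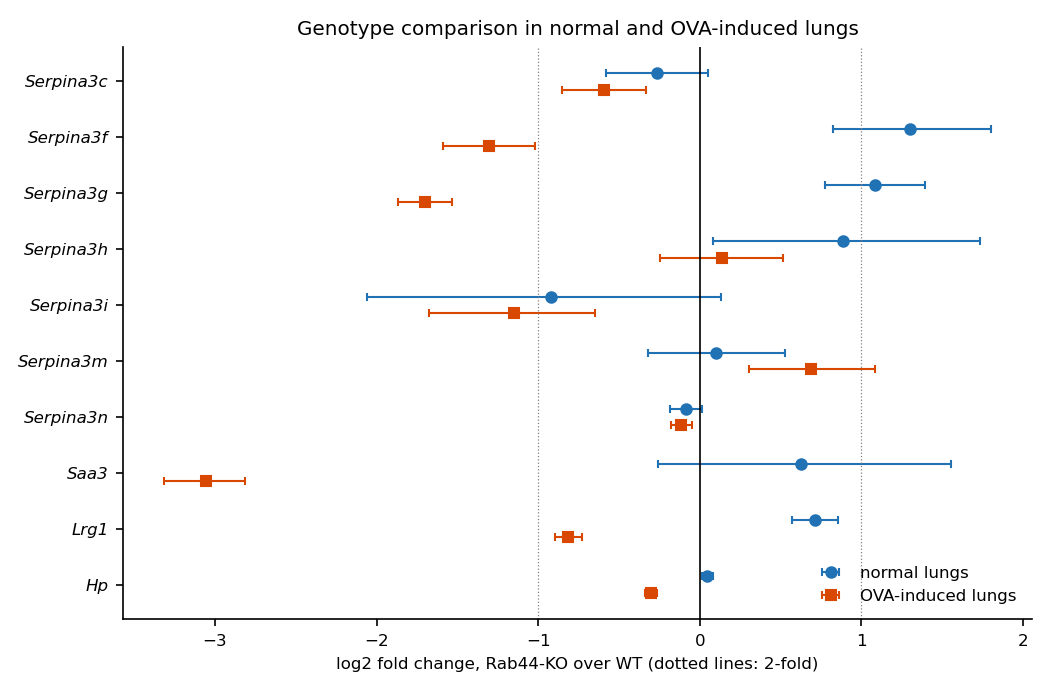
The log2 fold change of Rab44-KO over WT for the 10 genes in normal lungs (circles) and OVA-induced lungs (squares), with exact 95% intervals of the count ratio that cover counting error only and dotted lines at 2-fold. Serpina3f, Serpina3g and Lrg1 stand to the right of 0 in normal lungs and to the left in OVA-induced lungs, and Saa3 is farthest to the left at -3.06.

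Opposite signs in the 2 genotype comparisons were read for 5 of the 10 genes (Serpina3f, Serpina3g, Saa3, Lrg1 and Hp), and 42.1% of the 18233 genes tested in both had opposite signs. In 4 of them (all but Saa3) the counting intervals excluded 0 in both comparisons, with the higher level in normal Rab44-KO and the lower level in OVA-induced Rab44-KO lungs, as in 3.32% of those genes. Since the members were chosen for this pattern, nothing is read from these counts. The difference between the 2 genotype log2FC values, OVA-induced minus normal, was -3.69 for Saa3 (-4.65 to -2.76), -2.78 for Serpina3g (-3.14 to -2.43), -2.60 for Serpina3f (-3.18 to -2.04) and -1.53 for Lrg1 (-1.69 to -1.36). For Serpina3n it was -0.03 (-0.15 to 0.09), and for Serpina3m it was 0.59 (0.005 to 1.17), so the value was far from even within the cluster.

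Past 2-fold, 2 of the 10 genes were higher in normal Rab44-KO lungs (Serpina3f and Serpina3g), against 2.77% of all genes tested, and 0 were lower, against 2.0%. In OVA-induced lungs 4 were lower in Rab44-KO (Serpina3f, Serpina3g, Serpina3i and Saa3), against 7.34% of all genes, and 0 were higher, against 8.40%. The median log2FC of the members was 0.37 in normal and -0.70 in OVA-induced lungs, beside medians of 0.004 and -0.02 over all genes. With a minimum of 50 counts the median in normal lungs was 0.10. On the TPM scale 2 members were lower and 1 higher past 2-fold in OVA-induced lungs with a median of -0.37, while over all genes the split went from 1617 higher and 1413 lower to 2602 higher and 777 lower.

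**Figure D3:**
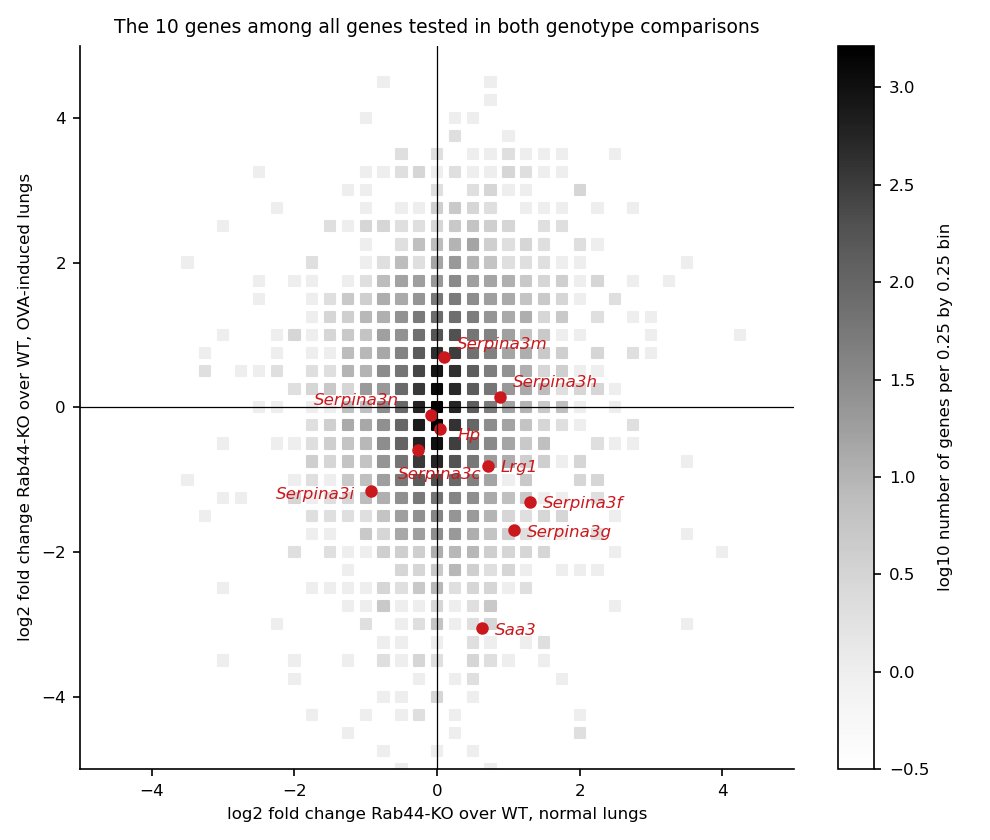
Genes tested in both genotype comparisons, by log2 fold change of Rab44-KO over WT in normal lungs (horizontal) and OVA-induced lungs (vertical), shaded by the log10 number of genes per bin, with the 10 members in red and 30 of 18233 genes beyond the plotted range. Serpina3f, Serpina3g, Lrg1, Saa3 and Hp lie at the lower right, and Serpina3c, Serpina3i and Serpina3n in the lower left.

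Some members were higher after OVA in both genotypes, and others mainly in WT. In WT lungs 7 of the 10 genes were over 2-fold higher after OVA (Serpina3f, Serpina3g, Serpina3h, Serpina3i, Serpina3n, Saa3 and Lrg1), against 8.99% of all genes, and 0 were lower, against 5.20%. In Rab44-KO lungs 4 were over 2-fold higher (Serpina3h, Serpina3i, Serpina3n and Saa3), against 6.44%, and 0 were lower, against 3.85%. The median log2FC was 2.16 in WT and 0.60 in Rab44-KO lungs, beside 0.004 and -0.008 over all genes. The OVA-induced WT library enters both the genotype comparison in OVA-induced lungs and the change in WT, so these are not independent.

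Saa3 was 64.3-fold higher after OVA in WT (log2FC 6.01, 5.37 to 6.75) and had a log2FC of 2.32 in Rab44-KO lungs (1.74 to 2.96). Serpina3g was 9.45-fold higher in WT and 1.37-fold higher in Rab44-KO, and Serpina3f was 6.81-fold higher in WT while its log2FC in Rab44-KO was 0.16 with an interval that held 0 (-0.19 to 0.52). Taken as a difference in CPM, the change in Rab44-KO lungs was 5.09% of that in WT for Serpina3f, 9.34% for Serpina3g, 9.76% for Saa3 and 27.0% for Lrg1. It was 36.5% for Serpina3c and 42.7% for Serpina3i, and 90.9% for Serpina3n and 92.5% for Serpina3h. No share is given for Serpina3m and Hp, which changed little in WT. Serpina3n was 2.12-fold higher in WT and 2.08-fold higher in Rab44-KO lungs, and on the TPM its log2FC in WT was 0.91, which is under 2-fold and leaves 6 members higher in WT.

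**Figure D4:**
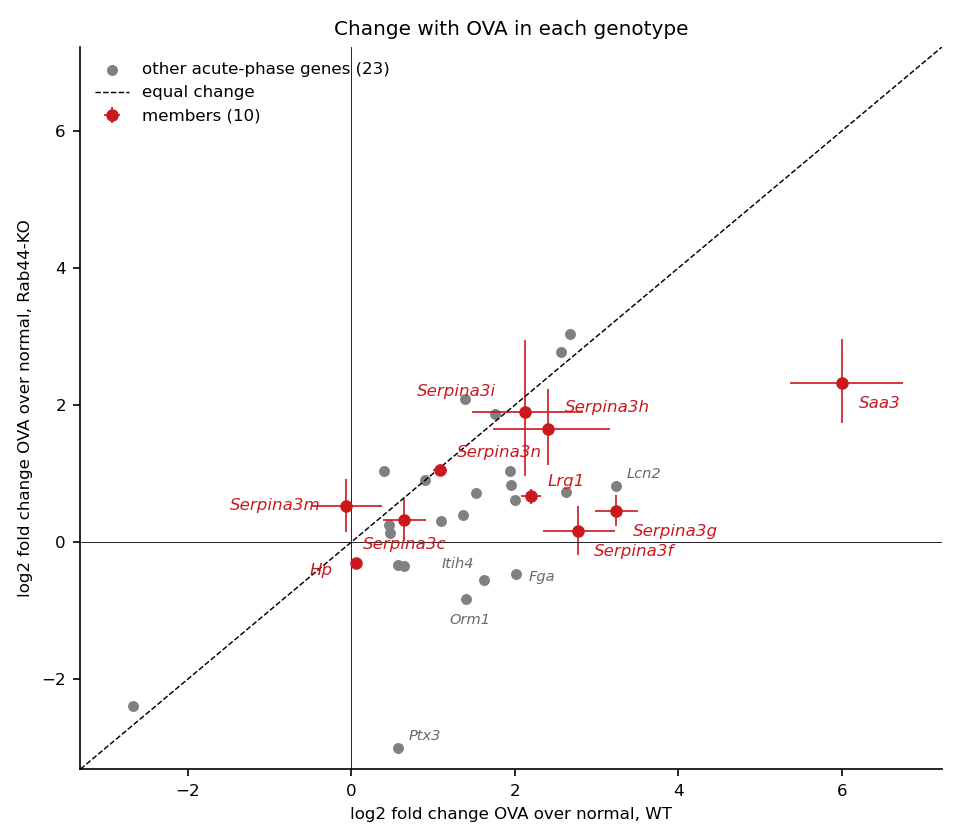
The log2 fold change of OVA-induced over normal lungs in WT (horizontal) and Rab44-KO mice (vertical) for the 10 members (red, with exact 95% intervals of the count ratio) and 23 other acute-phase genes (grey), with a dashed line of equal change. Serpina3n, Serpina3i and Serpina3h lie near the line, Serpina3f, Serpina3g and Lrg1 lie below it near the grey point of Lcn2, and Saa3 lies below it far to the right.

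Levels of different genes were compared per length, on the TPM scale. Hp was the most abundant member in every library, at 1211 TPM in WT and 1275 in Rab44-KO for normal lungs, and 1113 and 1131 TPM after OVA. Saa3 moved most in the order of levels, from the seventh place at 4.43 TPM in normal WT to the second at 254 TPM in OVA-induced WT, and it was the fourth at 38.3 TPM in OVA-induced Rab44-KO lungs. In OVA-induced WT lungs it was next to Lrg1 at 252 TPM. Serpina3i was the lowest member in each library, between 0.647 and 4.68 TPM.

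Within the cluster, Serpina3n made up 75.2% of the TPM of all Serpina3 genes in WT and 67.7% in Rab44-KO for normal lungs, and 60.9% and 74.9% after OVA. Serpina3g was second in the cluster in OVA-induced WT at 71.7 TPM and was 27.7 TPM in OVA-induced Rab44-KO lungs. Serpina3g passed Serpina3c in every library but normal WT, where Serpina3c was at 13.4 TPM and Serpina3g at 8.57 TPM.

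**Figure D5:**
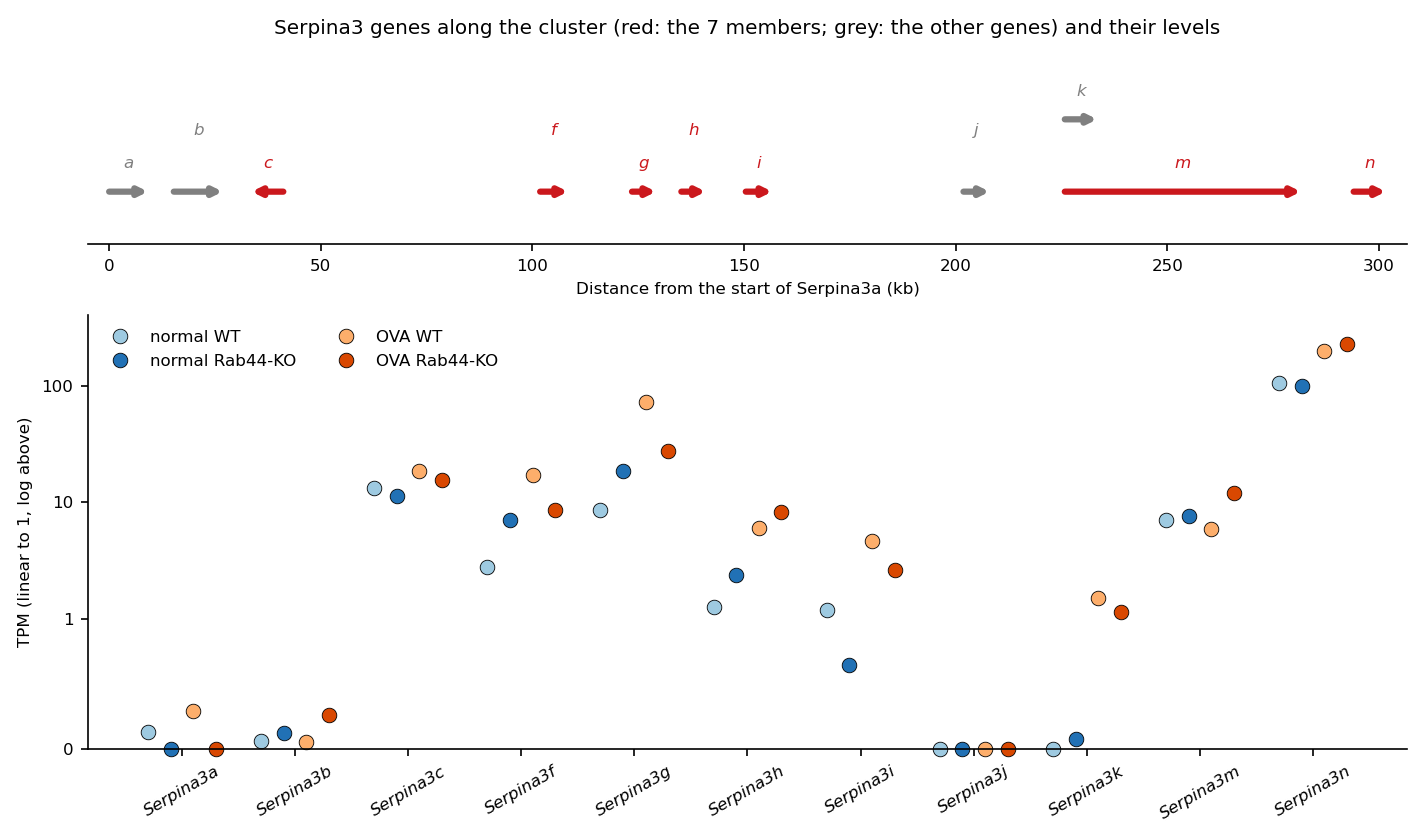
Top, the Serpina3 genes as arrows by distance in kb from the start of Serpina3a in GENCODE M21, members in red and other genes in grey; bottom, TPM of each gene in the 4 libraries on an axis that is linear to 1 and logarithmic above. Serpina3f, Serpina3g, Serpina3h and Serpina3i sit side by side, and Serpina3n at the far end has the highest TPM of the cluster in every library.

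The counts of close paralogs depend on how reads with several matches were handled, which is not given in the sources used here. Between the longest transcripts, Serpina3h and Serpina3i were identical at 91.5% of aligned bases, Serpina3c and Serpina3m at 90.0%, and Serpina3f and Serpina3g at 88.8%. Reads were 150 bases long, and none of the 150-base windows of Serpina3c, Serpina3f, Serpina3g, Serpina3h, Serpina3i, Serpina3n, Saa3, Lrg1 or Hp occurred whole in a transcript of another gene, while 5 of 1510 windows of Serpina3m occurred in Serpina3k. Windows of 50 bases were shared with another gene for 10.6% of Serpina3f, 15.5% of Serpina3g, 21.9% of Serpina3h, 15.9% of Serpina3i, 19.1% of Serpina3m, 6.90% of Serpina3n, 4.25% of Serpina3c and 4.15% of Saa3. The error of a level from reads placed on the wrong paralog was not measured.

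The other genes of the pathway were taken as lists. Of 23 other acute-phase genes with enough counts, 15 were over 2-fold higher and 1 lower after OVA in WT, and 6 higher and 2 lower after OVA in Rab44-KO. Their medians were 1.41 and 0.61. Over all genes 8.99% were higher and 5.20% lower in WT, and 6.44% and 3.85% in Rab44-KO. By genotype, 8 of 23 were over 2-fold lower and 1 higher in OVA-induced Rab44-KO lungs, with a median of -0.51 (6 lower and 3 higher on the TPM, median -0.18), against 7.34% lower and 8.40% higher of all genes, and 1 of 22 was higher in normal Rab44-KO lungs (median 0.45), against 2.77% of all genes and a median of 0.004. Lcn2, the siderophore-binding lipocalin, had 1046, 1443, 9933 and 2710 counts, and log2FC values by genotype of 0.54 and -1.88. Pigr, which carries immunoglobulin A across epithelium, was at -1.78 in OVA-induced lungs, Itih4 at -1.63 and Timp1, an inhibitor of metalloproteinases, at -1.16. The metallothionein Mt2 was at 0.76, on the other side. S100a8 and S100a9, which are carried by neutrophils, were higher after OVA in both genotypes, at 2.57 and 2.67 in WT and 2.78 and 3.03 in Rab44-KO lungs.

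Among 22 inducers and transducers of the acute-phase response, 1 was over 2-fold higher and 3 lower in OVA-induced Rab44-KO lungs, and the median was 0.09 (0.41 on the TPM). Over all genes 8.40% were higher and 7.34% lower in that comparison, which is near the share of this list. Il6 itself had 2, 3, 13 and 6 counts in the 4 libraries in the order above, and Il17a and Il22 had at most 4, so these cytokines were hardly sampled. Il1b, which encodes interleukin-1 beta, had 115, 191, 471 and 386 counts and log2FC values by genotype of 0.80 and -0.30, with the order of libraries of Serpina3g, and the latter value turned to 0.03 on the TPM. Il1a had 74, 79, 156 and 58 counts and values of 0.17 and -1.43. Il6st, the shared receptor chain of the interleukin-6 family, was at 0.31 by genotype in normal and 0.90 in OVA-induced lungs, and Il6ra, its ligand-binding partner, at 0.17 and 1.15. Socs3, a feedback target of STAT3, was at 0.16 and 0.03, and Stat3 at 0.16 and 0.11. Cebpd, a transcription factor of acute-phase genes, was at 0.90 and 0.52 and Cebpb at 0.52 and -0.18 (0.14 on the TPM), beside 1.08 and -1.70 for Serpina3g.

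All 14 genes of an interferon-gamma list with enough counts were lower in OVA-induced Rab44-KO lungs, 4 of them over 2-fold, against 7.34% of all genes, with a median of -0.73 beside -0.02 over all genes, and on the TPM all 14 were lower too (median -0.40). In normal Rab44-KO lungs 2 of 13 were over 2-fold higher (median 0.16), against 2.77% of all genes. Cxcl10, a T cell chemokine, had 8, 36, 107 and 21 counts in the 4 libraries and log2FC values by genotype of 2.23 and -2.35. Cxcl9 had 6, 13, 105 and 12 counts and values of 1.17 and -3.13. Both had opposite signs in normal and OVA-induced lungs, as Serpina3f and Serpina3g did. For Cxcl9 the sign in normal lungs rests on 6 and 13 counts, and no interval is given for it. In normal lungs 11 of the 13 tested genes were higher in Rab44-KO, so opposite signs were not particular to these 2 chemokines. Irf1 was at -0.11 and -0.66.

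Among the proteases that serpins of this kind meet, 7 of 11 were over 2-fold lower and 1 higher in OVA-induced Rab44-KO lungs, with a median of -1.17 (4 lower and 1 higher on the TPM, median -0.84), against 7.34% lower and 8.40% higher of all genes. Ctsb, which encodes the cathepsin B that Serpina3g inhibits, was at 511, 490, 1012 and 499 CPM, a log2FC by genotype of -0.06 and -1.02. Ctsk and Ctss, the cathepsins K and S of macrophages, were at -3.17 and -1.78 in OVA-induced lungs. Gzmb, a target of Serpina3n, was at -0.27 (0.05 on the TPM) and Elane had at most 5 counts in a library. Of 11 receptors and partners, 1 was over 2-fold lower (Hmox1, heme oxygenase, at -1.21) and 0 higher, with a median of 0.23 (0.55 on the TPM).

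The genes with the most similar pattern over the 4 libraries were sought among 13889 genes by the distance between centred log2 CPM. Closest to Serpina3n were Hpse at 0.062 and Nfam1 at 0.064. Closest to Lrg1 were Lilrb4b at 0.10 and Lilra6 at 0.17. Closest to Saa3 were the immunoglobulin segment Igkv3-2 at 0.15 and Ighv1-9 at 0.35, with Slc26a4, which encodes the anion exchanger pendrin, in the fourth place at 0.51. With 4 libraries many patterns are alike, and Hp, which differed little, had genes within 0.014 (Slc5a6) and 0.017 (Ifnar2).

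Markers of several cell types were highest in the OVA-induced WT library, as Saa3, Serpina3g and Lrg1 were, and their part in the results was not tested. Summed CPM was 59.7, 73.8, 2809 and 80.2 for 8 markers of alternatively activated macrophages and 785, 704, 5883 and 1302 for 10 of alveolar macrophages. Chil3 alone made up 5248 CPM of the latter sum in OVA-induced WT and 917 CPM in OVA-induced Rab44-KO lungs, the median log2FC of the list after OVA in WT was 0.79, and Fabp1 went the other way, with 87, 87, 31 and 116 counts. For 6 goblet cell markers the summed CPM was 71.7, 77.3, 1936 and 59.4, for 8 eosinophil markers 28.3, 31.1, 141 and 28.6, and for 7 T cell markers 43.9, 48.2, 102 and 50.1. Of these lists 8 of 8, 3 of 10, 6 of 6, 7 of 7 and 5 of 7 tested genes were over 2-fold lower in OVA-induced Rab44-KO lungs, against 7.34% of all genes, and on the TPM 7 of 8, 2 of 10, 6 of 6, 5 of 7 and 0 of 7. The sums for alternatively activated macrophages and T cells had the full order of libraries of Serpina3g, but not every marker did. Among Rab44-KO lungs 3 of 7 tested genes of each of these 2 lists were lower after OVA. Among normal lungs 2 of 6 and 2 of 7 were lower in Rab44-KO. Retnla made up 2306 CPM of the sum for alternatively activated macrophages in OVA-induced WT. Among normal lungs the alveolar macrophage sum was lower in Rab44-KO (704 against 785 CPM). Of its genes 6 were lower and 4 higher there, Marco among the latter at a log2FC of 1.46. Among Rab44-KO lungs the sums of goblet cell and eosinophil markers were lower after OVA, although 3 of 5 tested eosinophil markers were higher there. The sum of 5 mesothelial markers also had the order of Serpina3g, at 95.3, 158, 206 and 202 CPM. In normal Rab44-KO lungs 3 of 5 were over 2-fold higher, against 2.77% of all genes. After OVA 0 of 5 were past 2-fold by genotype, and 3 of 5 were higher in Rab44-KO (median log2FC 0.11), unlike Serpina3g. B and plasma cell markers summed to 125, 111, 1094 and 384 CPM, and 3 of 5 were over 2-fold lower in OVA-induced Rab44-KO lungs. Alveolar type 2 markers summed to 21588, 21867, 31469 and 19071 CPM for 8 genes, and 7 of 8 were lower in OVA-induced Rab44-KO lungs (4 of 8 on the TPM), Sftpc among them at -1.01. The 10 neutrophil markers summed to 116, 143, 593 and 724 CPM, higher in both OVA-induced libraries as Serpina3n was. Adipocyte markers summed to between 63.1 and 133 CPM. Of the 10 hepatocyte markers, Apoa1, Apoc3, Serpina1a and Fgb had 0 counts in both normal libraries, while Trf had 7547 to 8892 counts and Apoa2 152 to 188 counts in a library. Alb had 10 and 12 counts in normal lungs and 90 and 54 after OVA, in WT and Rab44-KO. After OVA 2 of 5 tested hepatocyte markers were over 2-fold higher in WT and 4 of 6 in Rab44-KO lungs, against 8.99% and 6.44% of all genes.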

How the data were processed

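Lung RNA of 4 libraries was analysed, 1 per group, assigned by their labels. The authors deposited raw counts per gene and TPM, made from trimmed paired reads of 150 bases with HISAT2 on GRCm38 and featureCounts. Over 15583 genes, counts and TPM differed by 1 length per gene. Starts in the table equal GENCODE M21 for 0.857% of 28949 genes, so positions were taken from that annotation. Tool versions, strand settings and the treatment of multi-mapping reads are not given in the sources used here.

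Library totals were between 18112901 and 19910236 counts, scaled by TMM (edgeR 4.0.16, R 4.3.3; factors 0.973 to 1.02). The log2FC used a prior count of 0.125 and a minimum of 10 counts in the higher library. The 95% intervals are Clopper-Pearson for ratios, Poisson for levels and the exact conditional odds ratio for differences of log2FC, and cover counting error only. They were computed with Python 3.11.15 and scipy 1.17.1. The floor of 3 counts is 0.154 to 0.164 CPM. No p-value was computed, since 2 libraries leave no residual degrees of freedom. In simulated counts over 41079 genes, 200 of 200 changed genes were recovered past 2-fold in each genotype comparison. Their set changes were well past 2-fold, in genes of at least 100 expected counts, and only counting error was simulated. The simulation therefore checks the computation, and not how reliable a 2-fold call is without replicates or at low counts.

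The members and lists were chosen with earlier results of these data known. Named genes are the members, other Serpina3 genes, Rab44 and, per list, up to 5 genes with the largest absolute log2FC by genotype in OVA-induced lungs and at least 100 counts, plus up to 5 genes most like Serpina3n, Saa3, Lrg1 and Hp. Other list genes (such as Il6, Il1a, Il1b, Cd163, Socs3, Cebpb, Cebpd, Saa1, Irf1, Gzmb and Alb) were named after their values were seen. Motifs and the annotated inhibitors without serpins were also chosen then. Alternatives were DESeq2 1.42.0 size factors, total counts, TMM on 2 libraries or without 399 immunoglobulin genes, a prior of 2, count minimums of 1 and 50, thinning, TPM and removal of the length trend. Promoters matched 7 of 10 members in the RefSeq table, without Serpina3h, Serpina3m and Hp. Sequences were aligned with Biopython 1.88.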

Additional observations from a re-analysis of the deposited data

Results flagged for a closer look

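Serpina3g, Serpina3f, Lrg1 and Hp were singled out because the Rab44-KO library was above the WT library in normal lungs and below it in OVA-induced lungs, with counting intervals that excluded 0 in both. The difference between the genotype log2FC values, OVA-induced minus normal, was -2.78 for Serpina3g, -2.60 for Serpina3f, -1.53 for Lrg1 and -0.35 for Hp. With 1 library per group the difference was not tested. For Hp the OVA-induced direction turned when the TPM or the length-corrected counts were used.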

How the results depend on the processing

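Of 110 values for counts and medians of the members, recomputed under 10 alternatives, 104 were within 1.5 times for counts or, for medians, within the counting interval of the middle members. These include the median in normal lungs, which was 0.10 with a minimum of 50 counts against 0.37. On the TPM, in OVA-induced Rab44-KO over WT, 1 member was over 2-fold higher (Serpina3m) and 2 lower (Serpina3g and Saa3), and the median was -0.37. The log2FC turned for Serpina3n to 0.21 and for Hp to 0.024, and Hp after OVA in WT turned to -0.12. With the length trend removed, 1 member was higher, the median was -0.41, Serpina3n was at 0.16 and Hp at 0.056, and Hp after OVA in WT was at -0.087. With thinned counts, 1 member (Serpina3i) was over 2-fold lower and 3 higher in normal Rab44-KO lungs, Serpina3h (1.03) among the latter. On the TPM and with the length trend removed, 6 members were over 2-fold higher after OVA in WT, without Serpina3n (0.91 and 0.95). The TPM moved the median of all genes by 0.317 in OVA-induced Rab44-KO over WT, by -0.168 after OVA in WT and by 0.123 in Rab44-KO; the cause was not tested. The signs of Serpina3f, Serpina3g, Saa3 and Lrg1 were the same under each alternative that gave a value in both genotype comparisons. Depth limits Serpina3h, Serpina3i and Saa3 in normal lungs, with 12 to 37 counts. No paired analysis was possible because each group has 1 library.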

Other observations

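Other protease inhibitors were read from the table's own annotation, which puts 130 genes under serine protease inhibition, 6 members among them and 67 outside the serpins. Outside the serpins, of 40 with enough counts 9 were over 2-fold lower and 3 higher in OVA-induced Rab44-KO lungs (6 and 6 on the TPM), against 7.34% and 8.40% of all genes, with a median log2FC of -0.002 (0.32 on the TPM). Slpi, the secreted leukocyte protease inhibitor of mucosal surfaces, had 315 counts in WT and 387 in Rab44-KO for normal lungs, and 1713 and 542 after OVA, a log2FC by genotype of 0.37 and -1.67. Wfdc17 had 44, 71, 822 and 231 counts and values of 0.76 and -1.84. Both had the order of libraries of Serpina3g, with OVA-induced WT highest and normal WT lowest. On the other side, Itih2 was at 1.69 and Wfdc8 at 1.60 in OVA-induced lungs.

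Glucocorticoids act beside cytokines on acute-phase genes, and genes of their response were higher in the Rab44-KO library more often than lower. Of 10 such genes 9 were above 0 in normal lungs (median 0.41, none over 2-fold, beside 2.77% higher and a median of 0.004 over all genes), and in OVA-induced lungs 4 were over 2-fold higher and 1 lower (median 0.76), beside 8.40% higher, 7.34% lower and a median of -0.02 over all genes. On the TPM 5 were higher and 0 lower (median 1.09), while over all genes 2602 were higher and 777 lower. Dusp1, a phosphatase induced by stress and steroids, had 4307 counts in WT and 7681 in Rab44-KO for normal lungs, and 3899 and 13285 after OVA. OVA-induced WT was thus its lowest library. Fkbp5, a widely used steroid target, was at -0.12 and -0.17 (0.16 on the TPM), and Zbtb16 was at 0.81 in normal and -1.08 in OVA-induced lungs.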
